A study of Mus musculus with 8 samples.

Results

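Mouse genes whose symbols end in Rik carry placeholder names from the RIKEN full-length cDNA collection, given where no name based on function was available. The genes described here are those that RefSeq types as long noncoding RNA (lncRNA), whose symbols end in Rik and which had at least 160 raw counts summed over 8 libraries of embryonic cerebral cortex. The count matrix holds 27179 genes, of which 1170 are Rik-named lncRNA genes, and 330 of these reached the minimum. The other 840 were below it, and 233 of them had no count in any library. A total of 5 Rik-named genes of the mixed type misc_RNA and 13 Rik-named pseudogenes reached 160 counts and were not taken as members. Members were chosen by their summed counts alone, so their abundance above the minimum is not a result.

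The study sequenced polyadenylated RNA from 4 embryos with Taf8 deleted, genotype Taf8 -/lox, and from 4 Taf8-intact embryos, genotype Taf8 +/+. Each library came from its own embryo, and the libraries were unstranded. The labels name neither the stage of the embryos nor the recombinase that acts on the lox allele, so the cells in which Taf8 was lost are not known from them. The first part of the animal number differs among the 4 deleted embryos and is shared by 3 of the 4 intact ones, and none occurs in both groups, so whatever it marks cannot be told apart from genotype.

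TAF8 belongs to TFIID, a complex that binds core promoters and helps to load RNA polymerase II there. LncRNAs are transcribed by the same polymerase, and many start close to the promoter of a protein-coding gene and run away from it on the other strand, an arrangement called head to head or divergent. Such transcripts are often short-lived because nuclear adaptor complexes hand them to the RNA exosome. They were therefore compared with their neighbours as well as between genotypes, and genes linked to this decay are given beside them.

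Total counts per library ranged between 39590959 and 44788200. Taf8 averaged 0.495 ± 0.187 CPM in Taf8-deleted cortex and 32.6 ± 2.07 CPM in Taf8-intact cortex (SD, n = 4 each, CPM being the count rate per TMM-scaled library size). Its log2 fold change, deleted over intact as everywhere below, was -6.02 ± 0.15 (SE). Of 4 cortical progenitor markers 2 were higher and 1 lower, with a median log2 fold change of 0.31: Pax6 stood at 0.48, Hes5 at 0.52 and Emx1 at -0.30, and Sox2, at 0.15, did not pass. Of the 5 cortical neuron markers 4 were lower and none higher in the deleted group. Of 6 meningeal markers 4 were higher, and their summed level was 60.9, 115.7, 145.7 and 18.7 CPM in deleted replicates 1 to 4 against 15.9 to 36.9 CPM in the intact libraries. The summed level of 4 choroid plexus markers was 910.7, 52.5, 144 and 1.55 CPM in deleted replicates 1 to 4 and reached 288.9 CPM in intact replicate 4, against 3.35 to 12.2 CPM in the other intact libraries. All 3 endothelial markers were higher, with summed levels of 80.4 to 102 CPM in the deleted and 64.9 to 72.7 CPM in the intact libraries. All 4 markers of interneurons and the ganglionic eminence were lower, with sums of 354 to 380 CPM in the deleted and 478 to 553 CPM in the intact libraries. No listed marker that was measured was at 0 in any whole group, and the part of these shifts in the levels of the lncRNAs was not tested.

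Sequences around the annotated starts are shown for 3 members with large rises beside a head-to-head gene, for 2 members with large falls that have no such neighbour, and for 1 member with a fall that has one. Each window runs from 250 bases before to 50 bases after the annotated start, 5′ to 3′ on the strand of the lncRNA, from the RefSeq promoter table of GRCm38.p6. Capitals mark GGGCGG (a GC box), CCAAT and TATAAA on either strand, so that CCGCCC and ATTGG are the first pair read from the other strand. The windows lie at chr2:179976603-179976902 (plus strand) for 4921531C22Rik, chr3:142882245-142882544 (plus) for 9530052C20Rik, chr16:33380687-33380986 (minus) for 1700007L15Rik, chr1:185441770-185442069 (minus) for 9630028B13Rik, chr15:98985715-98986014 (plus) for 4930578M01Rik and chr5:122989104-122989403 (plus) for A930024E05Rik.
4921531C22Rik: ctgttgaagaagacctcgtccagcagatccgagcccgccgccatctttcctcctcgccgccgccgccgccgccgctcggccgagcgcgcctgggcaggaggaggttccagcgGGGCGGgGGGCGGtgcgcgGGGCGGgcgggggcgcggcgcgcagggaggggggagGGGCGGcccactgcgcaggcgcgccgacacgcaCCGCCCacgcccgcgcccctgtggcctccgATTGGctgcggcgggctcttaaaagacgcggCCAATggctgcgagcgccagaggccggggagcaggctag
9530052C20Rik: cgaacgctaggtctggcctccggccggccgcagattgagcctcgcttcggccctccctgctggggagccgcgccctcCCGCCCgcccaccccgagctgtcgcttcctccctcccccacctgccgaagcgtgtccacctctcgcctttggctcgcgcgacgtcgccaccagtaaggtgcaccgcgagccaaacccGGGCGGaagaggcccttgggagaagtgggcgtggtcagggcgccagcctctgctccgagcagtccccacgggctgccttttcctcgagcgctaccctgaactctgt
1700007L15Rik: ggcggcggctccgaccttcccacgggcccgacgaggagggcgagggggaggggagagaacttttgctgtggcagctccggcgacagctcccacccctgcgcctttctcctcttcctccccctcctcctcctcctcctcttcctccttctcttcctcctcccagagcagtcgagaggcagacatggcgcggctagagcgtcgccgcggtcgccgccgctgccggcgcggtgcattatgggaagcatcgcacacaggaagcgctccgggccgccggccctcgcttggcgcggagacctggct
9630028B13Rik: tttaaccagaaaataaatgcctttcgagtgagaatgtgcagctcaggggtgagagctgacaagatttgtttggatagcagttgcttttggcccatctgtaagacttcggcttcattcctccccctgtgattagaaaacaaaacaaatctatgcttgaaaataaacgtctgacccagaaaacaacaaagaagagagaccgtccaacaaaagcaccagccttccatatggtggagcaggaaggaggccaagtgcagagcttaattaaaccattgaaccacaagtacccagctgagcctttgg
4930578M01Rik: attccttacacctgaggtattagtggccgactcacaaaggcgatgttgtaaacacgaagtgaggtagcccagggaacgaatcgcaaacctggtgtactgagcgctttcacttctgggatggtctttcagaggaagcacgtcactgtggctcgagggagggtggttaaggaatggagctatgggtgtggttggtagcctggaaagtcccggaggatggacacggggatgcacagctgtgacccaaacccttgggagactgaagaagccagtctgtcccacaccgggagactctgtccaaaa
A930024E05Rik: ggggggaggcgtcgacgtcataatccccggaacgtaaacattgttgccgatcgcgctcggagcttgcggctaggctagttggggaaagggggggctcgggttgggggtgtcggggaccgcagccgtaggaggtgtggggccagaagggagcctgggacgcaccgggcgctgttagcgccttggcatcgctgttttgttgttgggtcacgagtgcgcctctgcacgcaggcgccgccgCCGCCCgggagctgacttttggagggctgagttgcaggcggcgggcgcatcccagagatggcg

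The 4921531C22Rik window held 44 CpG dinucleotides and 5 GGGCGG matches, and the 9530052C20Rik window 31 CpG and 2 matches. The 1700007L15Rik window held 31 CpG and none of the 3 motifs. The windows of 9630028B13Rik and 4930578M01Rik held 4 and 11 CpG and no motif, while that of A930024E05Rik, whose level fell, held 31 CpG and 1 GGGCGG. Matches are a description of letters in these windows and not sites of binding.

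Most Rik-named lncRNAs that changed were more abundant in Taf8-deleted cortex. Of the 330 members 193 were higher (58.5%) and 44 were lower (13.3%) by edgeR's quasi-likelihood test at an adjusted p below 0.05, while 93 did not pass. Over all 16074 genes tested, 30.6% were called higher and 32.9% lower, 63.5% in all. The median log2 fold change of the members was 0.57, with quartiles of 0.02 and 1.05, against 6.31e-05 for all genes tested. A rise of at least 2-fold past the threshold was seen for 91 members and a fall of that size for 10, where 5.37% of all genes rose and 3.02% fell by as much. In 183 members every Taf8-deleted library lay above every Taf8-intact library and in 36 every one lay below, where 27.6% and 30.1% of all genes did so. In bulk tissue, fewer cells that carry a transcript and less of it per cell cannot be told apart.

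**Figure D1:**
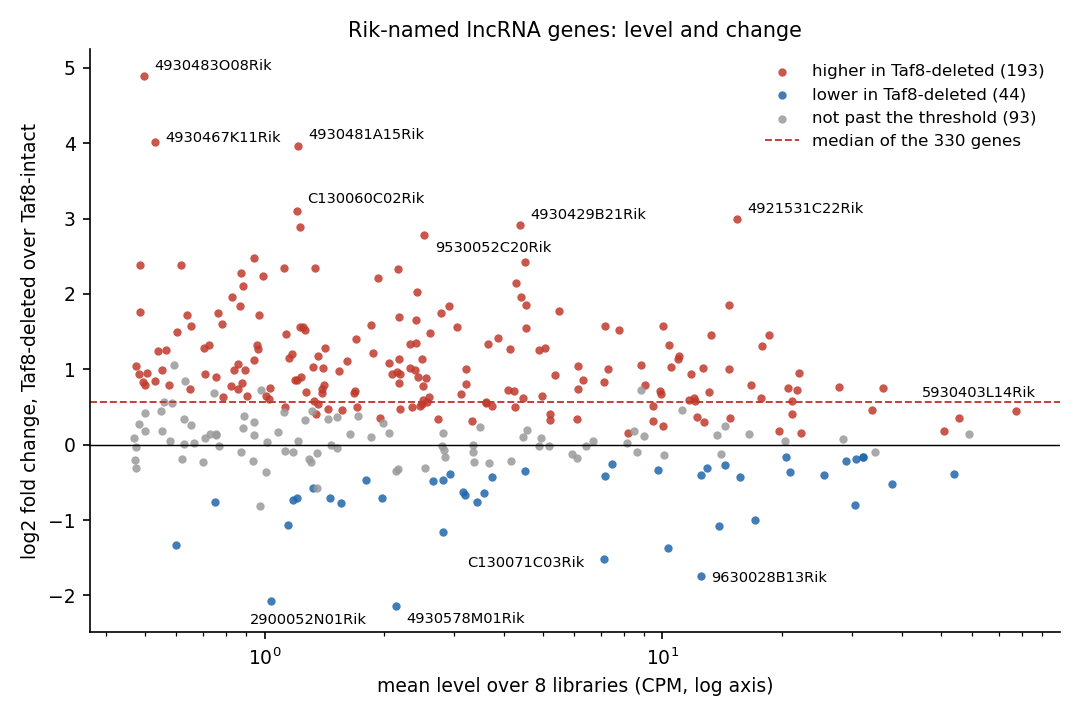
Each point is 1 of 330 Rik-named lncRNA genes, with its mean level over 8 libraries on a log axis (CPM) and its log2 fold change, Taf8-deleted over Taf8-intact. Red marks the 193 genes higher and blue the 44 lower in Taf8-deleted cortex; the dashed line is the median of 0.57, and falls reach -2.14 while rises reach 4.90.

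The counts themselves show the shift without a test. The 330 members together took 0.240%, 0.229%, 0.227% and 0.233% of the counts in deleted replicates 1 to 4, against 0.175% to 0.180% in the 4 intact libraries. Their summed level was 2273 ± 61.9 CPM in the deleted group and 1809 ± 7.12 CPM in the intact group (SD, n = 4 each). All 4 Taf8-deleted libraries lay above all Taf8-intact libraries. The median over members of the log2 ratio to the intact mean was 0.60, 0.46, 0.46 and 0.57 in deleted replicates 1 to 4 and between -0.04 and 0.02 in the intact libraries. Deleted replicate 4, which had the lowest meningeal and choroid plexus marker sums of its group, had a median of 0.57. Without deleted replicates 2 and 3, the libraries with the highest meningeal sums, 186 members were higher and 32 lower, where 25.8% and 28.5% of all genes tested then were. Without deleted replicate 1 and intact replicate 4, the libraries with the highest choroid plexus sums, 172 were higher and 38 lower, where 28.1% and 28.7% of all genes were. The cortical progenitor, neuronal, endothelial and ganglionic eminence marker sums still lay apart between the groups in the libraries left. With all libraries, the progenitor sums were 512.5 to 545.9 CPM in the deleted and 386.3 to 482.0 CPM in the intact group. The part of any marker shift in these counts was not tested.

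The minimum of 160 counts could be reached through 1 group alone. In 46 members 1 group had fewer than 80 counts, the deleted group alone reaching 80 in 42 of them and the intact group alone in 4. Among the 284 members with 80 counts or more in both groups, 159 were higher (56.0%) and 42 lower (14.8%). Their median log2 fold change was 0.47. Of all genes tested, 30.6% were higher and 32.9% lower. Of the members named here, 1700007L15Rik, 1700055D18Rik, 1700124L16Rik, 1810062O18Rik, 4930467K11Rik, 4930481A15Rik, 4930483O08Rik, 4933433G15Rik, 5430402O13Rik, 6720483E21Rik and C130060C02Rik had under 80 counts in the intact group. 2900052N01Rik and C030018K13Rik had under 80 in the deleted group. Such members could enter mainly through the group where they were high, so their differences are given as descriptions. Just inside the minimum stood 2410021H03Rik, with 76 counts in the deleted and 85 in the intact group, and 2600006K01Rik, with 85 and 77. Just outside stood 2610028E06Rik, with 85 counts in the deleted and 73 in the intact group, and A330093E20Rik, with 67 and 91.

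The members were expressed at low levels. Their mean level ranged between 0.471 and 77.2 CPM with a median of 2.33 CPM, 64 members reached 10 CPM and 79 were under 1 CPM. Per kilobase of annotated length the median level was 1.57 CPM, close to the 1.46 CPM of 300 other lncRNA genes with at least 160 counts and below the 9.81 CPM of protein-coding genes tested. The 8 most abundant members held 19.8% of the summed member level. When members were ranked by level, the lowest 83 (0.471 to 1.03 CPM) had 45 higher (54.2%) and 2 lower (2.41%). Their median log2 fold change was 0.74. The highest 83 (from 7.14 CPM) had 46 higher (55.4%) and 22 lower (26.5%), with a median of 0.32. Members of low level are those that could reach 160 counts through 1 group, and the 46 with 1 group under 80 counts had a median of 1.30. The trend with level was not separated from this minimum. Protein-coding genes within the same CPM bounds had medians of 0.28 and -0.02. In the low bounds 28.6% of these protein-coding genes were higher and 13.4% lower, and in the high bounds 31.7% and 37.6%. Of the 64 members at 10 CPM or more 36 were higher, 18 lower and 10 not called, where 30.6% of all genes tested were higher and 32.9% lower.

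The other 300 lncRNA genes, those with symbols of other kinds, had 142 higher and 35 lower and a median log2 fold change of 0.38. The 183 protein-coding genes with Rik symbols and at least 160 counts had 73 higher and 54 lower, with a median of 0.10. For all protein-coding genes tested, 4256 of 14447 were higher and 5031 lower, with a median of -0.02. These are counts and medians set side by side, and no difference between the groups of genes was tested.

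Position relative to other genes divided the members further. Of the 330, 153 started within 1000 bases of the start of a gene on the other strand, head to head, and 64 of these overlapped no other gene. A further 111 overlapped another gene without such a neighbour, and 66 did neither, a strand being known for 323 members. Among the 64 head-to-head members without overlap 46 were higher and 3 lower, with a median log2 fold change of 0.70. Among the 89 head-to-head members that overlapped a gene 54 were higher and 8 lower, with a median of 0.67. Members that only overlapped had 58 higher and 17 lower (median 0.46), and members with neither had 35 higher and 16 lower (median 0.39). The other lncRNA genes were ordered likewise, with 74 of 118 higher in the head-to-head group (median 0.67) and 68 of 182 higher in the rest (median 0.21). These counts stand beside 30.6% higher and 32.9% lower over all genes tested. In the class with neither, 53.0% were higher and 24.2% lower. No difference between the classes was tested.

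**Figure D2:**
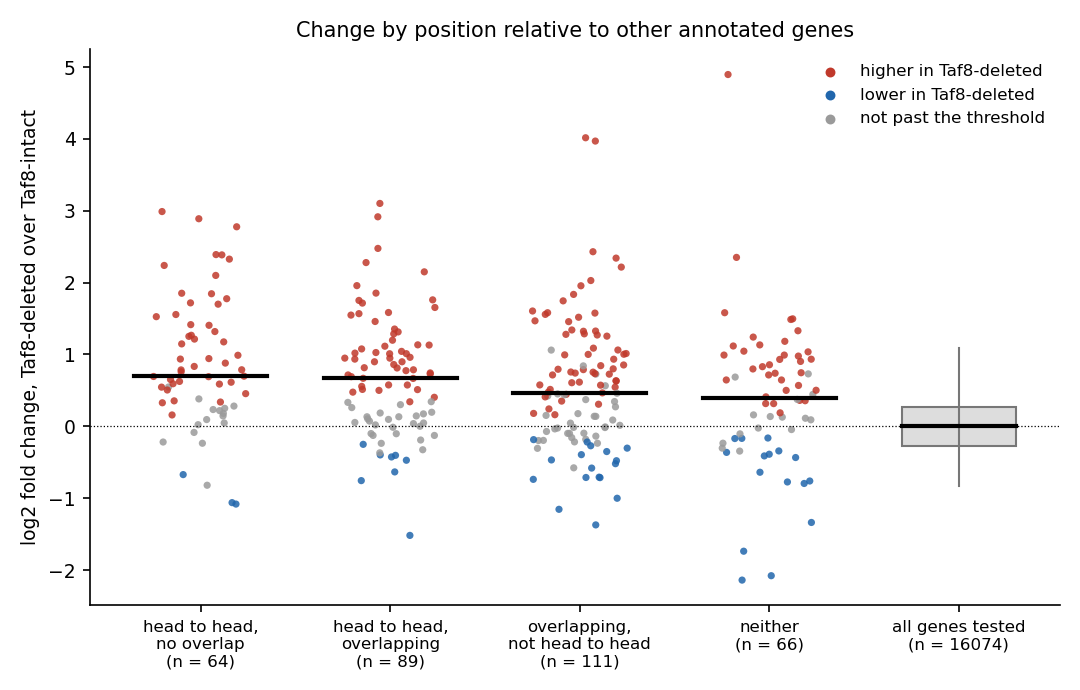
Log2 fold change, Taf8-deleted over Taf8-intact, of each member by its position (points, coloured by call) with the median of each class as a black line; the box shows the quartiles, median and 5th to 95th percentiles of the 16074 genes tested. The class medians are 0.70, 0.67, 0.46 and 0.39 from left to right, and the lowest members, down to -2.14, stand among those with neither a head-to-head nor an overlapping gene.

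The head-to-head neighbours themselves did not shift to one side. A neighbour was tested for 144 of the 153 members, and 55 neighbours were higher, 50 lower and 39 not called, with a median log2 fold change of 0.02. The shares over all genes tested were 30.6% higher and 32.9% lower. In 121 of 144 pairs the lncRNA had the larger log2 fold change. Among the 62 pairs without overlap the medians were 0.70 for the lncRNA and -0.04 for the neighbour, the starts were a median of 122.5 bases apart, and the median levels were 2.18 and 84.6 CPM. Of the lncRNAs called higher there, 17 had a neighbour that was higher, 16 one that was lower and 12 one that was not called. Across these 62 pairs Pearson's r between the changes was 0.16 and Spearman's rho 0.20; pairs are not independent replicates and share the same 8 libraries, so no p is given.

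**Figure D3:**
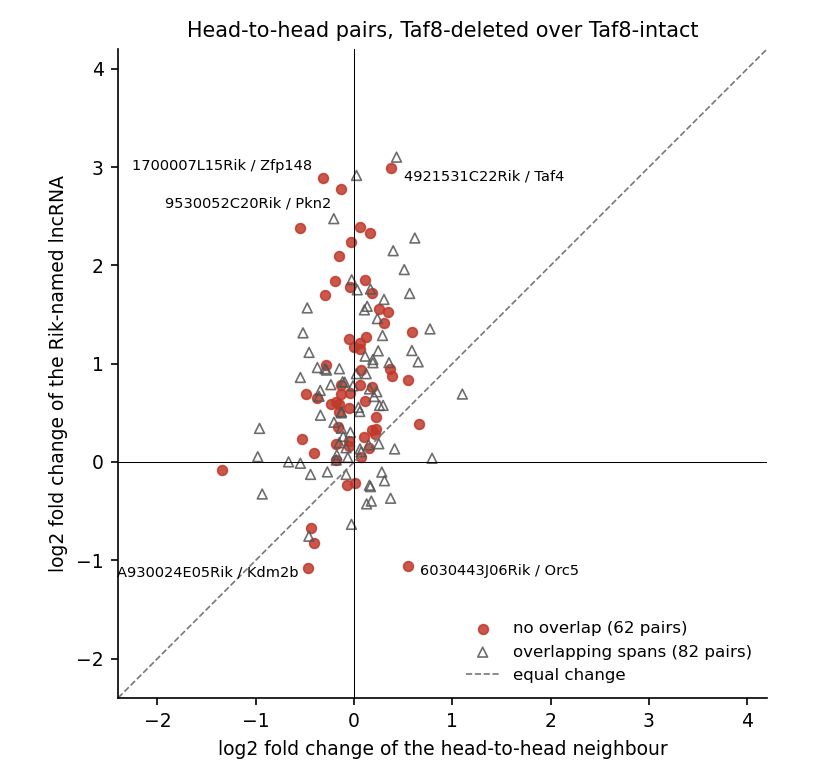
Each point is a head-to-head pair, with the log2 fold change (Taf8-deleted over Taf8-intact) of the neighbour on the horizontal axis and that of the Rik-named lncRNA on the vertical axis; filled circles are 62 pairs without overlap and triangles 82 pairs with overlapping spans. In 121 of 144 pairs the point lies above the dashed line of equal change, and the lncRNAs spread over a wider range than their neighbours. Members with under 80 counts in the intact group are included.

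4921531C22Rik, at chr2:179976853-179979013 on the plus strand, had the largest rise among members at 10 CPM or more. It starts 207 bases from the start of Taf4, which encodes another TFIID subunit, and overlaps no gene. Its level was 26.8, 29.6, 28.2 and 24.9 CPM in the Taf8-deleted libraries and 3.63, 3.35, 3.19 and 3.63 CPM in the Taf8-intact libraries. The groups did not overlap, and the lowest deleted library stood far above every intact one. The log2 fold change was 2.99 ± 0.07 (SE, adjusted p = 1.65e-10, edgeR). Taf4 was also higher, at 80.9 ± 1.93 CPM in deleted and 62.2 ± 2.89 CPM in intact cortex (SD, n = 4 each), with a log2 fold change of 0.38.

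1700007L15Rik, at chr16:33379854-33380736 on the minus strand, starts 39 bases from Zfp148, a zinc finger transcription factor. It had 2.26, 2.36, 2.19 and 1.87 CPM in the Taf8-deleted libraries and 0.325, 0.236, 0.341 and 0.261 CPM in the Taf8-intact libraries. Every deleted library was above every intact one, and the log2 fold change was 2.89 ± 0.18 (SE). Zfp148 fell, with a log2 fold change of -0.32. 9530052C20Rik, at chr3:142882495-142894646 on the plus strand, starts 491 bases from Pkn2, a protein kinase. It had 4.86, 4.29, 3.80 and 4.66 CPM in the deleted libraries and 0.721, 0.589, 0.633 and 0.617 CPM in the intact libraries, again without overlap. Its log2 fold change was 2.78 ± 0.14 (SE, adjusted p = 1.2e-08, edgeR) and that of Pkn2 was -0.13.

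Opposite changes were largest in these 2 pairs and in 3 others without overlap. 4933433G15Rik had a log2 fold change of 2.39 beside Mapk6, an atypical MAP kinase, at -0.55. 6720483E21Rik stood at 2.10 beside Paqr8 at -0.15. 1700055D18Rik stood at 2.24 beside Zbtb5 at -0.03, and Zbtb5 did not pass the test. 1700007L15Rik, 4933433G15Rik, 6720483E21Rik and 1700055D18Rik had under 80 counts in the intact group, so their opposite changes are descriptions. Pairs that changed alike were ranked by the smaller change of the pair. 2610035F20Rik, beside the transcription factor gene Zic2, averaged 14.8 ± 1.57 CPM in deleted and 5.95 ± 1.26 CPM in intact cortex (SD, n = 4 each), with log2 fold changes of 1.32 for the lncRNA and 0.59 for Zic2. 1700124L16Rik rose with Ankrd53 (0.83 and 0.54), although without deleted replicate 1 and intact replicate 4 the adjusted p of 1700124L16Rik was 0.0727 (edgeR). 1700124L16Rik had under 80 counts in the intact group as well, and the Ankrd53 groups overlapped, so the changes of this pair are a description. F630042J09Rik, at -0.82, did not pass (adjusted p = 0.101, edgeR; 0.0365 without deleted replicate 4 and 0.0473 without intact replicate 1), while its neighbour Zfp458 fell by 0.41 on the log2 scale.

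Among the 64 head-to-head members without overlap, 3 were called lower (4.69%), and they are all named here. The share lower over all genes tested was 32.9%. Of all 330 members, the deleted group alone reached 80 counts in 42 and the intact group alone in 4. The part of the minimum in these counts was not tested. A930024E05Rik, at chr5:122989354-122998345 on the plus strand and 84 bases from the histone demethylase gene Kdm2b, had 8.72, 7.69, 8.95 and 10.3 CPM in the Taf8-deleted libraries and 18.7, 19.5, 17.96 and 19.3 CPM in the Taf8-intact libraries. The groups were well apart, with a log2 fold change of -1.08 ± 0.08 (SE, adjusted p = 2.55e-07, edgeR), and Kdm2b was lower too, at -0.46. 2810032G03Rik and its neighbour Klhl29 were both lower, at -0.67 and -0.44. 6030443J06Rik was the exception to this likeness, at -1.06 beside Orc5, a subunit of the origin recognition complex, which was higher at 0.55.

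Among members that overlap another gene, reads of the 2 strands cannot be told apart. Of 177 members with a gene on the opposite strand, 161 had one that was tested. In those, 97 members were higher, and the most abundant overlapping gene was higher in 40 of these pairs, lower in 30 and not called in 27. Of 16 lower members, 12 lay over a gene that was also lower. The overlapping genes as a whole had 51 higher, 63 lower and a median log2 fold change of -0.02, against 0.63 for the members over them. Members with under 80 counts in the intact group are included here too. Over all genes tested the shares were 30.6% higher and 32.9% lower. For 19 members the overlapping gene lay on the same strand, where counts also cannot be assigned with certainty, and 7 of these genes were tested.

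The steepest rises included several overlapping genes. 4930467K11Rik, over the heat shock factor gene Hsf2, had 47, 48, 47 and 33 counts in the Taf8-deleted libraries and 5, 1, 2 and 2 counts in the Taf8-intact libraries, a ratio of 17.7 with an exact binomial 95% interval of 9.4 to 37.6. That interval covers counting error only. With 175 deleted and 10 intact counts it reached the minimum through the deleted group alone. Its fitted log2 fold change was 4.02 ± 0.33 (SE), given as a description, while Hsf2 did not pass the test, at -0.08. 4930481A15Rik, over Drap1 and Gm6293, had 1.97, 1.54, 4.04 and 1.55 CPM in the deleted libraries and 0.0465, 0.0707, 0.389 and 0.0711 CPM in the intact libraries. Deleted replicate 3 and intact replicate 3 were each the highest of their group, and the log2 fold change was 3.97 ± 0.60 (SE). Drap1, a subunit of the NC2 repressor of TATA-box promoters, was lower at -0.16. C130060C02Rik, over Cep78 and head to head with it, had a log2 fold change of 3.10, and Cep78 was higher at 0.43. 4930429B21Rik, over Zmat3, stood at 2.92, and Zmat3 did not pass, at 0.03. 1810062O18Rik, over Ppp3cb, a calcineurin catalytic subunit, and over Usp54, stood at 2.48 with Ppp3cb at -0.21 and Usp54 at 0.28. B430319G15Rik, a single-block gene over Plod2, stood at 2.43, and Plod2, a lysyl hydroxylase of collagen, was higher at 1.11.

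The largest fitted rise belonged to a member apart from other genes. 4930483O08Rik, at chr7:133128251-133142457 on the plus strand, had 43, 57, 27 and 41 counts in the Taf8-deleted libraries and 2, 1, 1 and 1 counts in the Taf8-intact libraries. The ratio of 168 to 5 counts, scaled by library totals, was 34.0 with an exact 95% interval of 14.3 to 106 that covers counting error only. The intact level lies under the 3 counts per library that a count of 0 allows, so it is near the limit of detection. This member reached the minimum of 160 counts through the deleted group alone, so the fitted log2 fold change of 4.90 ± 0.39 (SE) is a description.

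**Figure D4:**
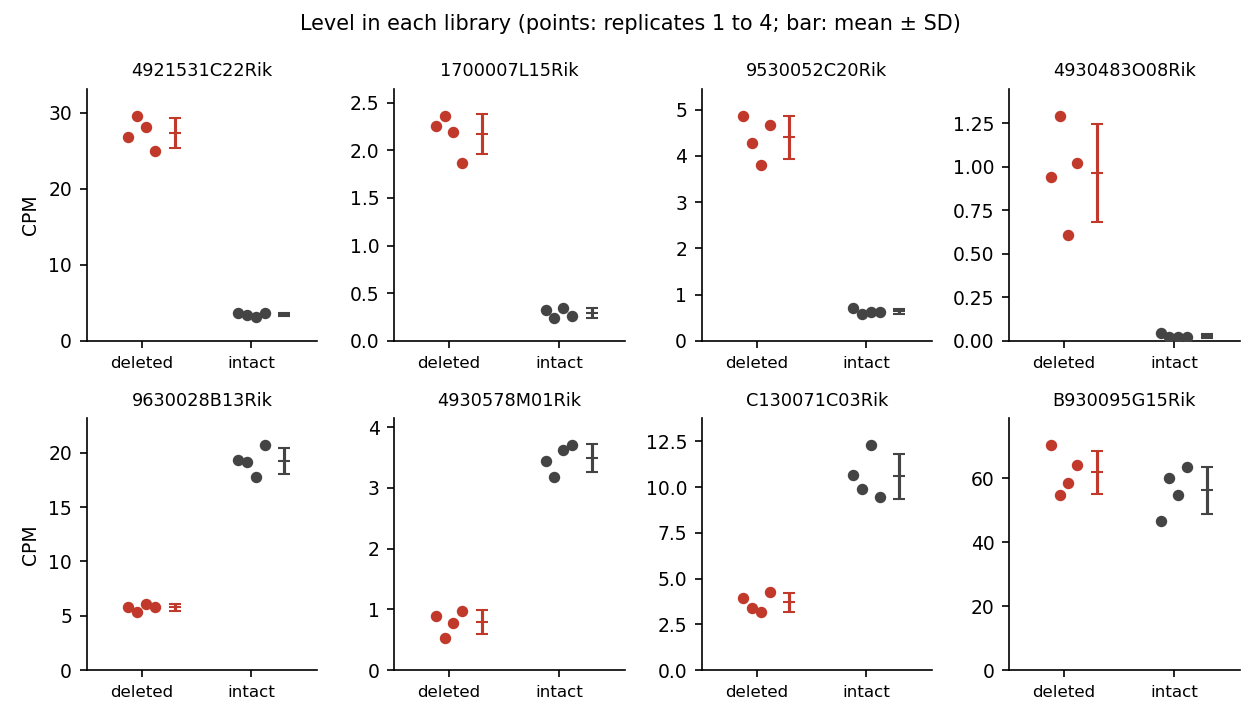
CPM in each of the 4 Taf8-deleted (red, left) and 4 Taf8-intact (grey, right) libraries for 8 members, with the mean ± SD beside the points. The top row shows 4 members that rose, such as 4921531C22Rik at 27.4 ± 1.98 and 3.45 ± 0.22 CPM in deleted and intact cortex; the bottom row shows 3 that fell and B930095G15Rik, whose groups overlap.

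The 44 members that were lower had a higher median level than those that were higher, 5.83 against 2.39 CPM, and their log2 fold changes ran between -2.14 and -0.16. 9630028B13Rik, at chr1:185429357-185441819 on the minus strand, overlaps no gene. It had 5.78, 5.31, 6.12 and 5.83 CPM in the Taf8-deleted libraries and 19.3, 19.2, 17.7 and 20.7 CPM in the Taf8-intact libraries. Replicates were close together within both groups, and the log2 fold change was -1.74 ± 0.07 (SE, adjusted p = 2.43e-09, edgeR). 4930578M01Rik, at chr15:98985965-98989281 on the plus strand, had 0.898, 0.522, 0.768 and 0.973 CPM in the deleted libraries and 3.44, 3.18, 3.63 and 3.7 CPM in the intact libraries. No deleted library reached an intact one, and its log2 fold change of -2.14 ± 0.17 (SE, adjusted p = 5.47e-07, edgeR) was the largest fall of all members. 2900052N01Rik fell nearly as far, with 0.395 ± 0.038 CPM in deleted and 1.68 ± 0.20 CPM in intact cortex (SD, n = 4 each) and a log2 fold change of -2.08. C030018K13Rik, with 10 to 21 counts in the deleted libraries and 25 to 48 in the intact libraries, stood at -1.34.

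Other falls lay over annotated genes. A230070E04Rik, whose strand was not known, overlaps the neurofilament gene Nefm and went the other way from it, at -1.16 against 0.69 for Nefm. 1500004A13Rik, over 5830417I10Rik, had 5.196 to 6.29 CPM in the deleted libraries and 11.5, 12.2, 12.8 and 23.0 CPM in the intact libraries. Intact replicate 4 stood apart there, and the log2 fold change was -1.37 ± 0.23 (SE). 5830417I10Rik was lower too, at -0.49.

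Of 13 members that hold an annotated miRNA or snoRNA gene on their strand, 2 were higher, 4 lower and 7 not called, with a median log2 fold change of -0.16. Among all genes tested 30.6% were higher and 32.9% lower, and no difference between these members and the others was tested. C130071C03Rik, at chr13:83721381-83741308 on the plus strand, is a host transcript of Mir9-2, whose miR-9 is abundant in the developing brain and acts on neural progenitors. It had 3.97, 3.38, 3.19 and 4.26 CPM in the Taf8-deleted libraries and 10.7, 9.92, 12.3 and 9.46 CPM in the Taf8-intact libraries. The groups were fully separate, with a log2 fold change of -1.52 ± 0.11 (SE, adjusted p = 2.57e-07, edgeR). The gene overlaps Gm52046, which was not tested. The polyadenylated libraries measure the host and not the mature miRNAs, whose sequences identify the product, with the seed (bases 2 to 8) in capitals, from the RefSeq miRNA table of GRCm38.p6.
mmu-miR-9-5p: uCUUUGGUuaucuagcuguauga
mmu-miR-9-3p: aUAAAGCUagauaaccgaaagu

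The snoRNA hosts among the abundant members moved little. 1110038B12Rik, which holds Snord52, had the highest level per kilobase of all members, 54.0 CPM, and averaged 30.1 ± 2.34 CPM in deleted and 33.6 ± 1.01 CPM in intact cortex (SD, n = 4 each). Its log2 fold change was -0.16, its groups overlapped, and its adjusted p of 0.0215 (edgeR) was above 0.05 under 7 of the other settings, at 0.0519 to 0.222. 2410006H16Rik, which holds Snord49a, Snord49b and Snord65, had 19.3 ± 0.63 CPM in deleted and 21.7 ± 0.86 CPM in intact cortex and a log2 fold change of -0.17, with an adjusted p of 0.00968 (edgeR) that was 0.065 with upper-quartile factors, 0.0788 with library totals and 0.0683 without deleted replicate 1 and intact replicate 4. The miRNA hosts 2610307P16Rik (Mir6368), 2900076A07Rik (Mir1839) and A230057D06Rik (the Mir344 cluster) were not called, at -0.14, -0.02 and -0.18, although without deleted replicate 4 the adjusted p of 2610307P16Rik was 0.047 (edgeR). The strongest rise among the hosts was that of 5430402O13Rik (Mir6371), at 1.72 (1.48 ± 0.24 CPM in deleted and 0.449 ± 0.222 CPM in intact cortex, SD, n = 4 each). 5430402O13Rik had under 80 counts in the intact group, so this difference is a description. Its span overlaps 4921507P07Rik, and it lies head to head with Cycs. C430049B03Rik, whose span holds Mir322, Mir351 and Mir503, was higher at 0.50, and A330023F24Rik, which holds Mir29b-2 and Mir29c, was not called at -0.34.

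The most abundant member was 5930403L14Rik, a single-block gene within the span and on the strand of Prdm16, a regulator of neural progenitors. It had 99.6, 90.4, 82.8 and 83.4 CPM in the Taf8-deleted libraries and 68.9, 64.3, 55.3 and 73.2 CPM in the Taf8-intact libraries. The groups did not overlap, with a log2 fold change of 0.44 ± 0.09 (SE, adjusted p = 0.00205, edgeR), and Prdm16 was lower at -0.19. 2900092D14Rik starts within 5000 bases past the end of Pou3f3, a POU transcription factor of upper-layer neurons, on the same strand, and overlaps Gm46091. It had 46.5, 44.3, 44.4 and 51.2 CPM in the deleted libraries and 59.9, 66.4, 56.6 and 62.0 CPM in the intact libraries, a log2 fold change of -0.39 beside -0.20 for Pou3f3. 6530402F18Rik, which overlaps the netrin-G gene Ntng2 on its strand, was lower at -0.52, and Ntng2 at -0.39. The remaining abundant members that rose were 1500011B03Rik (0.36), 9530082P21Rik over Flywch1 (0.18) and 5031425E22Rik over the methyltransferase-family gene Kmt2e (0.75). 5031425E22Rik had 45.1 ± 0.89 CPM in deleted and 26.7 ± 1.41 CPM in intact cortex (SD, n = 4 each), while Kmt2e did not pass at -0.04.

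Abundant members that were not called had small fold changes. B930095G15Rik, on the strand of Farp1, had 70.3, 54.8, 58.4 and 64.0 CPM in the Taf8-deleted libraries and 46.6, 60.0, 54.7 and 63.6 CPM in the Taf8-intact libraries. The groups overlapped, and the log2 fold change was 0.14 ± 0.11 (SE), while Farp1 fell by 0.51 on the log2 scale. 2810025M15Rik, head to head with Rasal2 and overlapping it, stood at -0.10 ± 0.05 (SE). E130307A14Rik, head to head with Rev3l, stood at 0.07 ± 0.05 (SE) and overlaps Rev3l, Traf3ip2 and Gm8899. Reads of these 2 members cannot be told apart from those of the genes they overlap. C630043F03Rik, head to head with Tle1 without overlap, stood at 0.05 ± 0.06 (SE). D430020J02Rik, head to head with Ncapg2, stood at 0.25 ± 0.15. E130307A14Rik was called higher with upper-quartile factors, library totals and without deleted replicates 2 and 3, with adjusted p-values of 0.0468, 0.0377 and 0.048 (edgeR). Without intact replicate 3 the adjusted p of 2810025M15Rik was 0.0302, and without intact replicate 4 that of D430020J02Rik was 0.0267. An adjusted p above 0.05 does not show that these levels were equal. Over all 93 members not called, log2 fold changes ran between -0.82 and 1.06, with a median SE of 0.19 against 0.14 for the called members. The widest scatter within a group belonged to 2410018L13Rik, with 44, 33, 54 and 30 counts in the deleted libraries and 31, 1, 60 and 4 counts in the intact libraries.

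Promoter windows were found for 278 of the 330 members. Shares are of genes with the letters in any of their windows. The table holds 32851 windows for 27025 genes, so genes with more annotated starts could match more easily. GGGCGG, searched on both strands, was found for 104 of 161 members called higher (64.6%) and 14 of 37 called lower (37.8%). It was found for 44 of 80 members not called (55.0%), 67.7% of the protein-coding genes tested and 38.2% of all genes in the table, expressed or not. TATAAA was found for 12 of 161 members called higher (7.45%) and for 6 of 37 called lower (16.2%), a share that rests on few genes. It was found for 8.96% of protein-coding genes tested and 15.7% of all genes. CCAAT was in 35.4% and 40.5% of the members called higher and lower, in 42.9% of protein-coding genes tested and in 41.1% of all genes. With the median over windows taken for each gene, median CpG counts were 24 for members called higher, 10 for those called lower and 20 for protein-coding genes tested. The same letters followed position: GGGCGG was in 77.1% of head-to-head members and 41.5% of the others, and TATAAA in 3.82% and 13.6%. Head-to-head windows include sequence of the neighbour's promoter, and motif shares and position were not separated.

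Of 12 genes linked to nuclear decay or restriction of short-lived polymerase II transcripts, 7 were higher, 3 lower and 2 not called, with a median log2 fold change of 0.13. The shares of 58.3% higher and 25% lower stand beside 30.6% and 32.9% of all genes tested. Zfc3h1, a component of the adaptor that targets polyadenylated nuclear RNA, was higher at 0.43, and Wdr82, Ncbp1, Rbm7, Ncbp2, Pabpn1 and Zcchc8 were higher at 0.28, 0.25, 0.24, 0.19, 0.17 and 0.09. Nrde2, whose product binds the exosome helicase, fell to 15.4 ± 0.41 CPM in deleted cortex, against 34.4 ± 1.38 CPM in intact cortex (SD, n = 4 each), a log2 fold change of -1.16. Zc3h4, a factor that restricts noncoding transcription, was lower at -0.35, and Srrt at -0.10. Mtrex, the exosome helicase, and Zc3h18 did not pass, at -0.04 and -0.01. The list does not sort genes by whether they help or limit decay, so a higher or lower level is not a measure of decay. Whether these levels have a part in the levels of the lncRNAs was not tested.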

How the data were processed

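RNA of 8 embryonic cortices was sequenced, 100-base paired and unstranded per the labels, and RNA was isolated with an RNeasy kit. The deposited values are raw counts per gene under Entrez identifiers. The submitters' processing notes name bcl2fastq 1.8.4, Subread 1.5.0, featureCounts and mm10 without roles, and the handling of multiply mapped reads is not stated there. Symbols, types and spans came from the RefSeq table of GRCm38.p6 (25275 of 27179 identifiers matched), and strands from RefSeq sequence tables and GENCODE M21. Identifiers without a symbol held 1.13% to 1.64% of the counts in the deleted libraries and 0.490% to 0.530% in the intact ones; leaving them out gave the same counts of members called, 193 higher and 44 lower.

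Groups were compared on the deposited counts with edgeR 4.0.16 under R 4.3.3 (filterByExpr, TMM factors 0.971 to 1.03, robust quasi-likelihood test, no covariates, Benjamini-Hochberg over 16074 genes), tested on simulated data. All 330 members passed the filter. A gene counted as single-block where its annotated length equals its span. Same-numbered libraries did not deviate together (correlations -0.46 to 0.01), so replicate numbers do not pair them. The 3-count limit corresponds to 0.0670 to 0.0758 CPM and covers counting error only.

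Members and lists were chosen with earlier results of these data known. Named members were the 8 most abundant, the 10 largest rises and 10 largest falls without overlap between groups, the 6 most abundant not called, the 2 on each side of the minimum, up to 6 hosts of small RNAs, the 5 most opposite pairs (by difference) and the 5 most alike (same sign, by the smaller change) among head-to-head pairs without overlap, the 2 with the largest SD relative to the mean, and C130071C03Rik. Some members that this rule takes are not reported here. 5430402O13Rik, C430049B03Rik and A330023F24Rik were named after their values were seen. The mouse Chaserr RNA has lost its Rik symbol in the table used and is no member. Alternatives were other size factors, filters, DESeq2 1.42.0, limma voom 3.58.1, a replicate block, leaving out libraries, and other member rules.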

Additional observations from a re-analysis of the deposited data

Results flagged for a closer look

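In 9 of the 94 groups of 4 libraries examined for named members, 1 library's gap to its nearest neighbour took a share of the group's range above Dixon's 95% critical value. Chance alone flags about 1 in 20 groups. The deleted libraries concerned were replicate 2 for 1700055D18Rik, lowest at 1.475 CPM against 1.67 to 1.70 in the others, and replicate 4 for 2810025M15Rik, highest at 34.71 CPM against 32.3 to 32.7. Among intact libraries, replicate 4 was highest for 1500004A13Rik at 22.96 CPM (others 11.5 to 12.8) and lowest for 1700124L16Rik at 0.2846 CPM (others 0.372 to 0.389). Intact replicate 3 was highest for 4930481A15Rik at 0.3893 CPM (others 0.0465 to 0.0711) and for A230070E04Rik at 4.939 CPM (others 3.37 to 3.61). Intact replicate 2 was highest for 6720483E21Rik at 0.4949 CPM (others 0.256 to 0.292) and lowest for B430319G15Rik at 1.296 CPM (others 1.44 to 1.46). Intact replicate 1 was highest for 4930483O08Rik at 0.04649 CPM, which is 2 counts against 1 in each of the others.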

How the results depend on the processing

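Counts of 180 to 192 members higher and 40 to 45 lower, with medians of 0.53 to 0.61, were found when each library was left out in turn. Over all settings tried, 23.4% to 36.7% of all genes were higher and 24.3% to 33.7% lower. The replicate block gave 183 higher and 43 lower; library totals 200 and 37; DESeq2 188 and 43; voom 195 and 44. Of members overlapping no other gene (130), 81 were higher and 19 lower, fewer by construction. No member called both as reported and under another setting turned direction. Scalings moved the median of all genes by at most 0.06. Sign changes concerned uncalled members near 0. 2900076A07Rik stood at 0.03352 with upper-quartile factors, 0.03708 with totals, 0.003503 with the CPM filter and 0.1478 without deleted replicates 2 and 3. 2410021H03Rik, A230057D06Rik and C630043F03Rik stood at 0.2964, 0.1404 and -0.03442 without deleted replicates 2 and 3, and 2600006K01Rik at -0.1094 without deleted replicate 1 and intact replicate 4. With 1 library left out at a time, the ranges were -0.113 to 0.07609 for 2900076A07Rik, -0.4255 to 0.005029 for 2410021H03Rik, -0.3419 to 0.004122 for A230057D06Rik and -0.0086 to 0.286 for 2600006K01Rik. The cause was not tested. Members under 1 CPM rest on few counts, which limits their precision.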
